A study of Mus musculus with 4 samples.

Results

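The RNA of 1 culture of immortalized mouse embryonic fibroblasts carrying Minimal Myc was compared with that of 1 culture carrying MycN. Genes were taken from the unscaled table of the authors, in FPKM, a count of fragments divided by transcript length and library size. Each gene had 1 value per library, and a gene was kept where its mean over the 4 libraries of the series was at least 1 FPKM. That left 11950 of 23366 genes. The size of a difference is Minimal Myc minus MycN on the log2(FPKM + 1) scale, which understates the difference of low genes.

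The series held 4 cultures of the same kind of cell, carrying Minimal Myc, MycN, Myc or an empty vector, with 1 library each. The cells are fibroblasts from mouse embryos made able to grow without limit in culture, here in DMEM with 10% FBS. Every culture, the one with the vector included, received an adenovirus that delivers Cre recombinase, and was harvested after a recovery given as 48 with no unit. The design of the series calls the cells without an added protein cells with deleted Myc, and asks how overall expression differs once a Myc protein is present. The sources used here do not say what Minimal Myc is made of, how strongly each protein was made, or whether a culture was 1 clone or a pool. Polyadenylated RNA was sequenced from strand-keeping libraries. With 1 library a side there was no replicate check, so every difference below is a size with no test, and differences between the cultures cannot be told apart from differences that arose between these particular dishes or libraries.

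Myc and MycN are transcription factors that pair with Max, bind E-box sequences near gene starts and are best known for raising the genes of ribosome assembly, nucleotide supply and cell growth. Mxd proteins and Mxi1 compete for Max and act in the opposite direction. The type I interferon pathway is an alarm system of nearly every cell type. Sensors of foreign nucleic acid lead to secretion of interferon, its receptor activates a complex of transcription factors that includes Irf9, and this complex binds the interferon-stimulated response element of antiviral genes.

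The inducible GTPases and antiviral effectors of the interferon pathway had the largest median differences of the gene lists, so promoters of interferon list members are shown first, from 250 bases before to 50 bases after the gene start, as RefSeq gives them for the mouse build GRCm38.p6. That build served only for these sequences, for chromosome names and for transcript lengths, because the authors' files are on mm9. The sequences are those of Oas1a (chr5:120907476-120907775, minus strand), Ifit3 (chr19:34583279-34583578, plus strand), Oas1g (chr5:120887564-120887863, minus strand), Lgals9 (chr11:78984875-78985174, minus strand) and Gbp3 (chr3:142559794-142560093, plus strand). They belong to the 5 genes with the largest differences among list members whose window held the core of the response element. Capitals mark each match to that core, spelled GAAANNGAAA and searched on both strands with overlapping matches counted, so that on the minus strand it reads as TTTC, 2 bases and TTTC.
Oas1a: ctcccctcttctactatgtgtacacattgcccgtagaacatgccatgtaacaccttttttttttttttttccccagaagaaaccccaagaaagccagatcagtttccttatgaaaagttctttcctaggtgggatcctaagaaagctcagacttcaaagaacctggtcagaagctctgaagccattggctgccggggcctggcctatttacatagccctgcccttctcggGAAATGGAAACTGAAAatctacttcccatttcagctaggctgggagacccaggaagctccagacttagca
Ifit3: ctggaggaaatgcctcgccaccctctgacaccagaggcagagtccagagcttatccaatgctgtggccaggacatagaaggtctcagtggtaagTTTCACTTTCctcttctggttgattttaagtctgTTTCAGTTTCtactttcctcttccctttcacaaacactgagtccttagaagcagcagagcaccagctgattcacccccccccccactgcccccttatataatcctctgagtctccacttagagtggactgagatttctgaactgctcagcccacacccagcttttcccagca
Oas1g: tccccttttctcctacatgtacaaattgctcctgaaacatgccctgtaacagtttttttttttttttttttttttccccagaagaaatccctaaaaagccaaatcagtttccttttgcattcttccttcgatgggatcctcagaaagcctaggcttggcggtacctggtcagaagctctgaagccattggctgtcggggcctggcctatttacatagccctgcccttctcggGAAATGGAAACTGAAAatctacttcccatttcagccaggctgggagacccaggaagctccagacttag
Lgals9: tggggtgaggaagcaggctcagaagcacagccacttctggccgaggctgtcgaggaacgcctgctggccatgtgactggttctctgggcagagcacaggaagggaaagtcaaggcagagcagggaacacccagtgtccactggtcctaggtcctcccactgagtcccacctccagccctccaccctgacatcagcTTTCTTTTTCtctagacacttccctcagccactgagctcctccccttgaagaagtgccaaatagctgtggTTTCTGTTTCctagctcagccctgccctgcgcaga
Gbp3: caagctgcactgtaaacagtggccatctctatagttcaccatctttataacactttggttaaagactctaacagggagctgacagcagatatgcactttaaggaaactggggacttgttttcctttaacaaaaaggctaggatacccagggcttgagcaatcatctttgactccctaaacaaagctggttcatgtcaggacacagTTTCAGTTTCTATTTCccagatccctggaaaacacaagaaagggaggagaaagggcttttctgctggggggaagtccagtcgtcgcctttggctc
Each of the 5 windows held 2 matches. In Oas1a the matches began 20 and 14 bases before the gene start and overlapped, and the neighbouring Oas1g, a near copy, carried them 18 and 12 bases before its start. In Gbp3 they lay 45 and 39 bases before the start. The promoter of Cbr2 (chr11:120731972-120732271, minus strand), the gene with the second largest difference in the opposite direction among those named by rule, had no match and is shown as well. A window without a match is the usual case, since the core stood in 3.69% of all promoters.
Cbr2: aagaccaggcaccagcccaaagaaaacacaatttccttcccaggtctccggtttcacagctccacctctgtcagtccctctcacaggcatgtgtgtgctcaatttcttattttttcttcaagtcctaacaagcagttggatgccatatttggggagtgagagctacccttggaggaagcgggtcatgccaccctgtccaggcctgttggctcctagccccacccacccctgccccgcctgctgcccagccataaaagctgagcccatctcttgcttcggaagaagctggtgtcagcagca

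The core stood in 37 of 97 interferon list genes with a promoter in the table (38.1%), against 317 of all 8590 kept genes with one (3.69%). Among list members at least 2-fold higher in Minimal Myc it stood in 31 of 63 (49.2%), and among those within 2-fold in 6 of 33 (18.2%). The inducible GTPases held it in 7 of 8 promoters and the antiviral effectors in 17 of 40. Outside these lists, 31 of 497 genes at least 2-fold higher in Minimal Myc held it (6.24%), and of genes at least 2-fold lower 6 of 293 did (2.05%). Among the genes with the largest differences, the windows of Ifi44, Slfn2, Irf7 and Oasl2 held no match. No promoter sequence was available for Zbp1, Usp18, Iigp1 and Mx2. The E-box CACGTG, which is its own reverse complement, stood in 12.1% of all promoters, in 17 of 50 promoters of Myc target genes (34.0%), in 10.4% of those higher in Minimal Myc and in 11.9% of those lower. The lists group genes by the pathway whose response element this is, so a high share in them is no independent result. They were also chosen with earlier results of these data known, and the split at 2-fold uses the same differences. Near copies such as Oas1a and Oas1g count as separate promoters. A match is a run of letters in this window and says nothing of binding.

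By 2-fold or more, 846 genes were higher in Minimal Myc (7.08%) and 527 lower (4.41%), together 11.5% of genes. The median difference was 0.04 and the central 90% of genes lay between -0.93 and 1.21. Relative to the median gene the counts were 796 (6.66%) and 565 (4.73%). A 4-fold difference or more was found in 250 genes on the higher side and 121 on the lower side. Small RNA genes, whose FPKM rests on very short transcripts, made up 38 of the 846 and 98 of the 527, against 310 of all 11950 genes. At the threshold itself, Myo1c at 1.00036 was counted and Dtwd1 at 0.999813 was not, and on the lower side Gm5577 at -1.00026 was counted and Eno2 at -0.999809 was not.

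**Figure D1:**
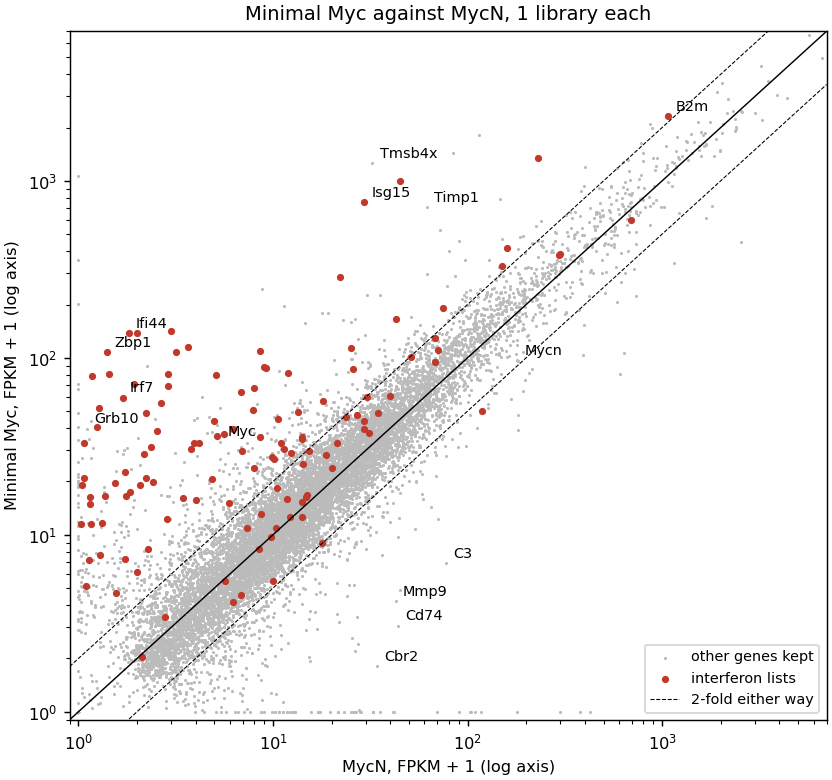
Level of each of 11950 genes in Minimal Myc (vertical, FPKM + 1, log axis) against MycN (horizontal, FPKM + 1, log axis), 1 library each, with interferon list genes as red points, equality as a solid line and 2-fold as dashed lines. Red points leave the diagonal mostly upward, with Zbp1, Ifi44, Irf7 and Isg15 far above it, while C3, Mmp9, Cd74 and Cbr2 lie far below.

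Which of these libraries stood apart was read from the Myc and vector libraries, after each library was centred on its median gene. Of the 846 genes higher in Minimal Myc, 222 were at least 2-fold away from both Myc and vector in Minimal Myc alone, 79 in MycN alone, 25 in both and 520 in neither. Of the 527 lower genes the same counts were 101, 71, 8 and 347. Minimal Myc was the highest of the 4 libraries for 746 of the 846, and MycN was the lowest for 484. Minimal Myc was the lowest for 338 of the 527, and MycN the highest for 407. Choosing genes by the gap between these cultures itself favours such ranks. Over all 11950 genes Minimal Myc was the highest for 4219 and the lowest for 1487. MycN was the highest for 3465 of them and the lowest for 1398. In most of the counted genes neither Minimal Myc nor MycN was 2-fold away from both Myc and vector.

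Myc itself stood at 32.6 FPKM in Minimal Myc, 4.36 in MycN, 141 in Myc and 22.2 in vector. Mycn stood at 95.9 FPKM in Minimal Myc and 178 in MycN, and at 0.275 in Myc and 0.390 in vector. Both cultures thus carried RNA counted as Mycn at levels far above the other pair, and the Minimal Myc culture also carried RNA counted as Myc at 7.49 times the MycN level, a difference of 2.65. Whole-gene values mix transcripts of a construct with those of the native gene, and the MycN library is the lowest of the 4 for Myc. The vector culture, which the design describes as Myc-deleted, was above it. Their partners and rivals differed less. Of 12 network genes kept, 1 was 2-fold higher (Myc) and 1 lower (Mxd4), with a median of -0.13, where 7.08% of all genes were higher and 4.41% lower. Mxd4, which competes for Max, stood at 18.1 FPKM in Minimal Myc, 45.2 in MycN, 32.4 in Myc and 12.8 in vector. Mxi1, of the same family, stood at 7.97 FPKM in Minimal Myc, 15.0 in MycN, 12.1 in Myc and 5.20 in vector, so Minimal Myc lay nearest to vector for both.

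The fibroblast markers were checked next. Of 19 markers 17 were kept, and their FPKM summed to 4874 in Minimal Myc, 3611 in MycN, 4810 in Myc and 3443 in vector. Summed markers of immune cells were 16.3 FPKM in Minimal Myc, 16.4 in MycN, 15.6 in Myc and 13.0 in vector. The kept immune markers went both ways beneath these sums. Cd14 stood at 13.0 FPKM in Minimal Myc and 6.79 in MycN, Cd68 at 1.87 and 5.23, and Csf1r at 1.05 and 2.81. Summed endothelial markers were between 1.01 and 2.22. Summed epithelial markers were 2.69 FPKM in Minimal Myc, 6.31 in MycN, 12.01 in Myc and 14.8 in vector. Adipocyte markers summed to 27.1 FPKM in Minimal Myc, 65.6 in MycN, 30.04 in Myc and 16.4 in vector. The 2 of them that were kept went opposite ways. Fabp4, a fatty acid carrier, stood at 9.80 FPKM in Minimal Myc and 52.96 in MycN. Lpl, the other, stood at 15.7 FPKM in Minimal Myc and 8.12 in MycN. In RNA of a whole culture, fewer cells of a kind and less RNA in each cannot be told apart.

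Most genes of the sensors, antiviral effectors and inducible GTPases of the interferon pathway were higher in Minimal Myc, while most of its receptors, transcription factors and negative regulators lay within 2-fold. Of 126 members of the 7 lists kept, 86 were at least 2-fold higher and 1 was lower, where 7.08% and 4.41% of all genes were. Their median difference was 2.07, against 0.04 for all genes. Minimal Myc was the highest of the 4 libraries for 112 of the 126, and MycN was the lowest for 57, below vector for 62 and below Myc for 89. Over all 11950 genes Minimal Myc was the highest for 4219, and MycN was the lowest for 1398 and below vector for 2239. Of all 126, 65 had Minimal Myc alone at least 2-fold above both Myc and vector, and 1 had MycN alone 2-fold below both. Both held for 11 and neither for 49. Among the 86, which were chosen by the gap itself, the same counts were 63, 1, 11 and 11. Where a culture stood apart it was thus mostly Minimal Myc, with MycN below the other cultures as well in part of the genes.

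The sensors of nucleic acid had 12 of 15 members higher in Minimal Myc by 2-fold or more and 0 lower, with a median of 1.87. Zbp1, which binds left-handed nucleic acid and can start cell death, had the largest difference among the genes named by rule that were above 0 in both libraries. It stood at 107 FPKM in Minimal Myc, 0.407 in MycN, 3.46 in Myc and 4.88 in vector, a difference of 6.26. Ifih1, the sensor of long double-stranded RNA also called Mda5, stood at 16.4 FPKM in Minimal Myc, 0.844 in MycN, 1.57 in Myc and 2.85 in vector. Ddx58, the sensor Rig-I, stood at 50.02 FPKM in Minimal Myc, 6.87 in MycN, 11.2 in Myc and 7.50 in vector. For all of these, Minimal Myc was above the other 3 cultures, and MycN was the lowest of the 4.

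The ligands and receptors differed less. The 7 members kept, all receptors or their kinases, had a median of 0.43, and only Il10rb, the shared chain of the receptors for Il10 and for interferon lambda, passed 2-fold. Ifnar2, a chain of the type I receptor, stood at 45.3 FPKM in Minimal Myc, 22.7 in MycN, 23.3 in Myc and 14.9 in vector. Its partner Ifnar1 stood at 14.9 FPKM in Minimal Myc, 10.8 in MycN, 9.64 in Myc and 10.2 in vector. The interferon genes themselves were under the filter. Ifnb1, named after its values were seen, stood at 1.25 FPKM in Minimal Myc, 0.0377 in MycN, 0.0774 in Myc and 0.314 in vector, and Ifng, the type II interferon, was listed at 0 in all 4.

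Of the transcription factors, 4 of 10 were 2-fold or more higher and 0 lower (median difference 0.59). Among them were Irf7, Stat2 and Irf9, which are themselves interferon-inducible. Irf7, which amplifies interferon production, stood at 58.3 FPKM in Minimal Myc, 0.685 in MycN, 3.83 in Myc and 7.41 in vector. Stat2, a signal carrier of the type I receptor, stood at 35.0 FPKM in Minimal Myc, 4.14 in MycN, 7.35 in Myc and 4.64 in vector. Irf9, its partner on DNA, stood at 36.1 FPKM in Minimal Myc, 4.58 in MycN, 10.02 in Myc and 6.26 in vector. In all 3 of these genes Minimal Myc was above the other cultures. Irf3, the factor that responds to sensors and is made at a steady level, stood at 11.6 FPKM in Minimal Myc and 11.2 in MycN. Irf5 went the other way at 7.99 FPKM in Minimal Myc, 16.8 in MycN, 5.92 in Myc and 2.52 in vector, a difference of -0.98 that did not reach 2-fold.

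The antiviral effectors formed the largest group, with 43 of 49 members at least 2-fold higher in Minimal Myc and 0 lower, and a median of 3.08. Ifi44 stood at 136 FPKM in Minimal Myc, 0.809 in MycN, 1.67 in Myc and 4.35 in vector. Oas1a, an enzyme that makes the messenger 2-5A to switch on RNA decay, stood at 80.01 FPKM in Minimal Myc, 0.439 in MycN, 5.63 in Myc and 3.54 in vector. Its family members Oas1g, Oas2 and Oasl2 were also among the 15 genes highest by rule, with differences of 5.36, 4.95 and 4.97. Ifit3, which helps restrain translation of viral RNA, stood at 141 FPKM in Minimal Myc, 1.996 in MycN, 7.68 in Myc and 6.60 in vector. Mx2, a dynamin-like GTPase that blocks viruses, was at 39.8 FPKM in Minimal Myc and 0.239 in MycN, against 1.33 in Myc and 1.16 in vector. For these genes Minimal Myc was the highest culture and MycN the lowest. Near copies such as Oas1a and Oas1g share sequence, so their single values are less certain than the sum of the family.

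Among abundant effectors the levels differed by less but involved far more RNA. Isg15, a small protein attached to others like ubiquitin, stood at 753 FPKM in Minimal Myc, 28.4 in MycN, 50.3 in Myc and 58.4 in vector. Bst2, the membrane tether also called tetherin, stood at 997 FPKM in Minimal Myc, 43.8 in MycN, 93.9 in Myc and 77.9 in vector. In both, Minimal Myc stood far above the other 3 cultures, of which MycN was the lowest. Lgals9, a secreted lectin, did not share this pattern: it stood at 106 FPKM in Minimal Myc, 2.18 in MycN, 39.8 in Myc and 18.1 in vector, so MycN was the culture set further from Myc and vector. Slfn2 stood at 70.3 FPKM in Minimal Myc, 0.925 in MycN, 3.23 in Myc and 1.38 in vector.

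All 14 inducible GTPases kept were at least 2-fold higher in Minimal Myc, with a median of 3.78 and a lowest difference of 2.22. These proteins attack the vacuoles in which parasites and bacteria live. MycN was the lowest of the 4 cultures for all 14 and Minimal Myc the highest for all 14. Over all 11950 genes MycN was the lowest for 1398 and Minimal Myc the highest for 4219. Iigp1 stood at 77.9 FPKM in Minimal Myc, 0.170 in MycN, 2.37 in Myc and 1.03 in vector. Gbp3 stood at 80.02 FPKM in Minimal Myc, 1.88 in MycN, 4.34 in Myc and 3.54 in vector. Irgm1, which regulates the others, stood at 78.9 FPKM in Minimal Myc, 4.09 in MycN, 11.1 in Myc and 7.86 in vector.

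Negative regulators were split. Of 10 kept, 1 was 2-fold higher and 1 lower, with a median of 0.15, where 7.08% of all genes were higher and 4.41% lower. Usp18, which removes Isg15 from proteins and blocks the type I receptor, stood at 136 FPKM in Minimal Myc, 0.988 in MycN, 7.33 in Myc and 5.74 in vector. Socs1, an inhibitor of the receptor kinases, stood at 32.1 FPKM in Minimal Myc, 20.4 in MycN, 16.7 in Myc and 13.1 in vector. Nfkbia, the inhibitor of NF-kB, was the 1 list member lower in Minimal Myc, at 49.1 FPKM there, 117 in MycN, 73.2 in Myc and 45.7 in vector.

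**Figure D2:**
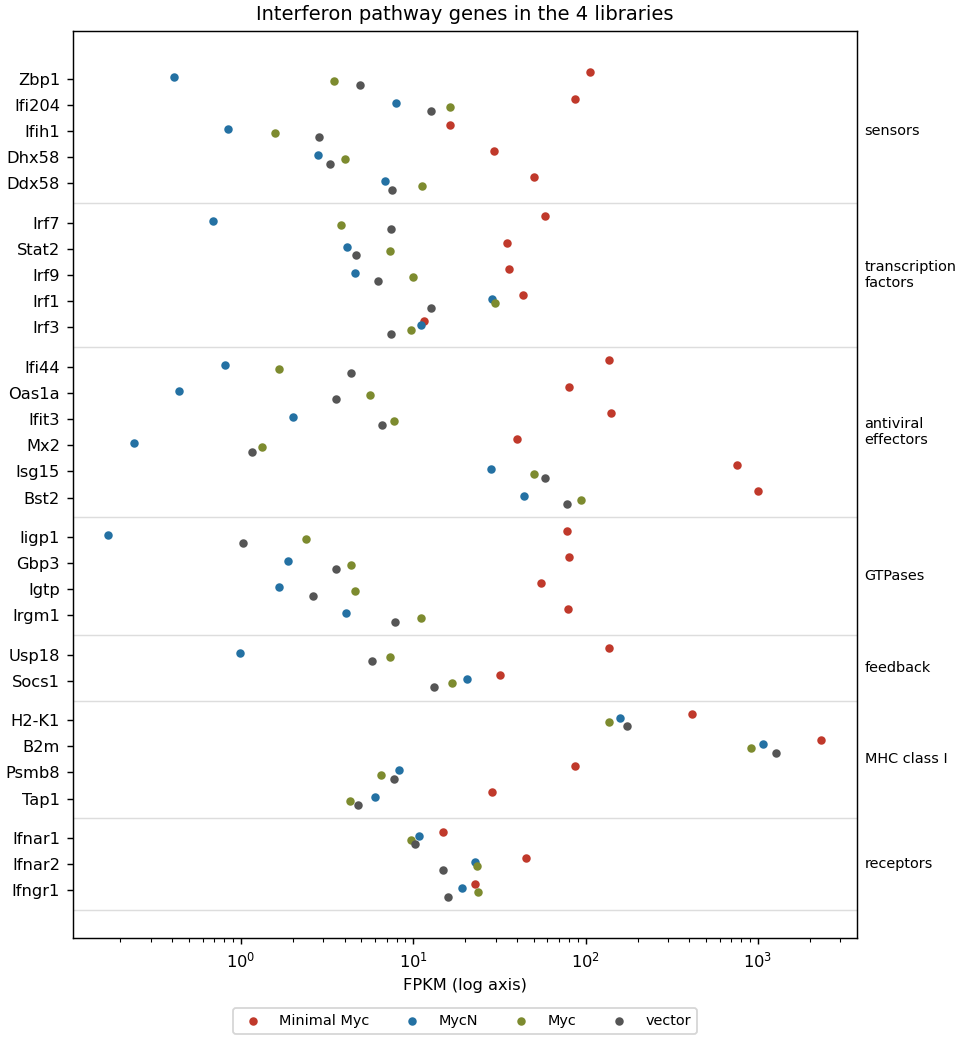
Level in FPKM (log axis) of interferon pathway genes in Minimal Myc, MycN, Myc and vector, 1 library each, grouped by role. Minimal Myc is the rightmost point for nearly every gene of the sensors, effectors and GTPases, MycN is the leftmost for most of these, and the receptors and Irf3 show close points.

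Genes of MHC class I, which present peptides to T cells, had 12 of 22 members 2-fold or more higher and 0 lower, at a median of 1.12. The shares over all genes were 7.08% and 4.41%. H2-K1 stood at 414 FPKM in Minimal Myc, 159 in MycN, 136 in Myc and 174 in vector. B2m, its light chain, stood at 2324 FPKM in Minimal Myc, 1073 in MycN, 911 in Myc and 1269 in vector. Psmb8, a subunit of the immunoproteasome, stood at 86.3 FPKM in Minimal Myc, 8.22 in MycN, 6.52 in Myc and 7.77 in vector, and Tap1, a subunit of the peptide transporter, at 28.7 in Minimal Myc, 5.97 in MycN, 4.27 in Myc and 4.78 in vector. For H2-K1, Psmb8 and Tap1 MycN was close to Myc and vector, so the distance lay on the Minimal Myc side. Cd74, the chain that accompanies MHC class II, went the other way at 2.06 FPKM in Minimal Myc, 42.9 in MycN, 6.96 in Myc and 3.39 in vector. Class II genes themselves were near 0, as seen when looked up afterwards: H2-Ab1 was listed at 0 in Minimal Myc and stood at 0.291 FPKM in MycN, and Ciita, their master regulator, stood at 0.0250 and 0.0374 FPKM.

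Secreted inflammatory genes differed in both directions. Of all genes, 7.08% were 2-fold or more higher in Minimal Myc and 4.41% lower. Of 13 chemokines 4 were 2-fold or more higher in Minimal Myc and 1 lower, at a median of 0.81, and of 22 acute phase and cytokine genes 10 were higher and 2 lower, with a median of 0.94. Ccl7 and Ccl2, which attract monocytes, stood at 791 and 1193 FPKM in Minimal Myc and at 146 and 398 in MycN. Il33, an alarm cytokine, stood at 27.7 FPKM in Minimal Myc, 0.690 in MycN, 3.85 in Myc and 9.39 in vector. Il6 stood at 23.8 FPKM in Minimal Myc, 1.08 in MycN, 4.86 in Myc and 1.58 in vector. Ptgs2, which makes prostaglandins, stood at 179 FPKM in Minimal Myc, 16.9 in MycN, 44.5 in Myc and 70.6 in vector. Minimal Myc was the highest culture for all 5.

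C3, the central complement component, ran against this group at 5.91 FPKM in Minimal Myc, 76.9 in MycN, 15.0 in Myc and 8.33 in vector, a difference of -3.49. Cx3cl1, a chemokine held on the membrane, did likewise at 1.60 FPKM in Minimal Myc, 24.5 in MycN, 5.47 in Myc and 2.90 in vector. In both genes MycN stood apart upward and Minimal Myc was the lowest of the 4. Saa3, an acute phase protein, stood at 227 FPKM in Minimal Myc, 34.4 in MycN, 30.7 in Myc and 3.34 in vector, so both cultures were above vector. The 20 genes of the NF-kB pathway had a median of 0.16 with 1 higher and 2 lower, close to the shares of 7.08% and 4.41% over all genes. Its members past 2-fold were Nfkbiz, a nuclear cofactor, at 36.9 FPKM in Minimal Myc and 11.1 in MycN, Traf1 at 2.42 and 8.27, and Nfkbia.

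**Figure D3:**
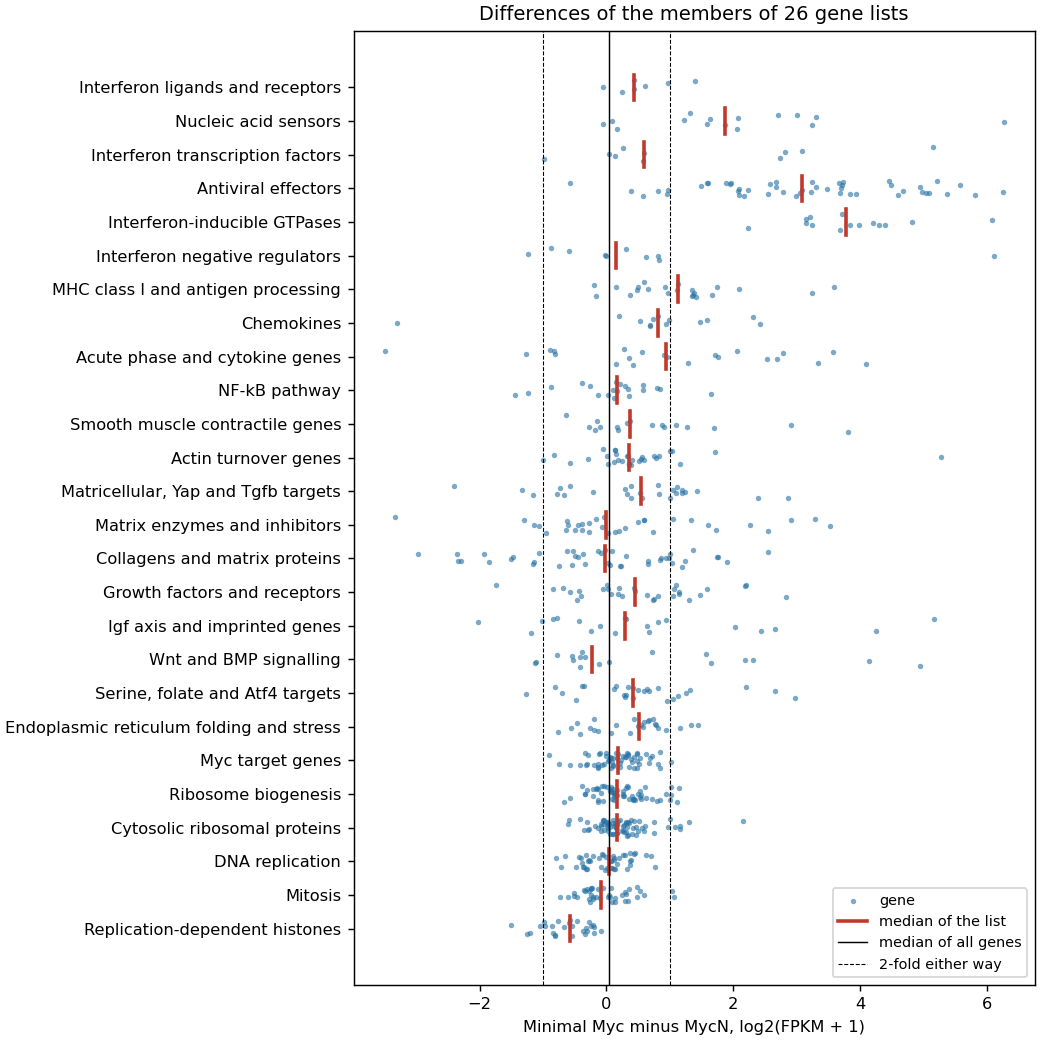
Difference of every kept member (blue points, Minimal Myc minus MycN, log2(FPKM + 1)) of 26 gene lists, with the median of each list as a red bar, the median of all genes as a solid line and 2-fold as dashed lines. The antiviral effectors and inducible GTPases have medians of 3.08 and 3.78, the growth lists lie near the median gene, and the replication-dependent histones lie to its left at -0.57.

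Genes of growth, for which Myc proteins are best known, mostly lay within 2-fold between these cultures, as did 88.5% of all genes. Of 58 Myc target genes 1 was 2-fold or more higher and 0 lower, at a median of 0.17, and 22 Myc cofactors had 0 either way and a median of 0.01. Of 61 ribosome biogenesis genes 5 were higher and 0 lower (median 0.16), where 7.08% of all genes were higher and 4.41% lower. The 26 subunits and factors of RNA polymerases I and III had 0 either way (median -0.09). Npm1, a nucleolar chaperone on the lists of Myc targets and of ribosome biogenesis, stood at 1187 FPKM in Minimal Myc, 588 in MycN, 1054 in Myc and 345 in vector. Nhp2, a part of the pseudouridine-making particles, stood at 179 FPKM in Minimal Myc, 80.7 in MycN, 144 in Myc and 47.8 in vector. Minimal Myc lay near Myc for both, and MycN lay between Myc and vector. Srm, the spermidine synthase, stood at 143 FPKM in Minimal Myc, 190 in MycN, 254 in Myc and 56.9 in vector.

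In the other growth lists most genes also lay within 2-fold, where 7.08% of all genes were higher and 4.41% lower. Ribosomal protein genes had 6 of 74 higher and 0 lower (median 0.17), of which 2 are on the X chromosome, and their single values are uncertain because of near-identical copies. Translation factors had 1 of 37 higher (median 0.20), tRNA synthetases 1 of 20 (median 0.44) and nucleotide synthesis 1 of 30 higher and 1 lower (median 0.33). Polyamine genes had 0 of 11 (median 0.16) and glycolysis 1 of 25 higher and 1 lower (median 0.13). Slc16a3, the lactate exporter, stood at 24.3 FPKM in Minimal Myc, 7.27 in MycN, 25.5 in Myc and 29.6 in vector, so MycN was the low culture. Cell division lists were also close. DNA replication had 0 of 46 (median 0.04), mitosis 2 of 40 higher (median -0.08) and G1 cyclins, Cdks and E2f 0 of 22 (median -0.01).

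Some stress and supply genes gave larger differences, such as members of the serine, folate and Atf4 target list. Over all genes 7.08% were 2-fold or more higher in Minimal Myc and 4.41% lower. Of 27 serine, folate and Atf4 target genes 7 were 2-fold or more higher in Minimal Myc and 1 lower, at a median of 0.42. Cth, which makes cysteine from cystathionine, stood at 37.1 FPKM in Minimal Myc, 3.84 in MycN, 6.47 in Myc and 6.24 in vector. Atf5, a stress transcription factor, stood at 134 FPKM in Minimal Myc, 28.6 in MycN, 56.6 in Myc and 98.9 in vector. Ddit4, an inhibitor of mTOR, went the other way at 17.2 FPKM in Minimal Myc, 42.9 in MycN, 48.8 in Myc and 8.97 in vector. Endoplasmic reticulum genes had 3 of 26 higher and 0 lower (median 0.52), among them Dnajc3, a chaperone that restrains the kinase Perk, at 21.4 FPKM in Minimal Myc and 7.24 in MycN. Cholesterol and fatty acid genes had 2 of 30 higher (median 0.24), Ebp and Nsdhl, both of which lie on the X chromosome. Oxidative phosphorylation had 2 of 43 higher (median 0.20), of which Ndufa1 is X-linked. Neither the cholesterol and fatty acid list nor this one exceeded the share of higher genes over all genes.

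The matrix showed large differences both ways with a median near 0. Of all genes, 7.08% were at least 2-fold higher in Minimal Myc and 4.41% lower. Of 43 collagens and matrix proteins 9 were at least 2-fold higher in Minimal Myc and 11 lower (median -0.02), and of 34 matrix enzymes and inhibitors 9 were higher and 4 lower (median -0.01). Timp1, an inhibitor of matrix proteases on the X chromosome, stood at 708 FPKM in Minimal Myc, 60.8 in MycN, 76.3 in Myc and 144 in vector. Lox, which crosslinks collagen, stood at 297 FPKM in Minimal Myc, 61.1 in MycN, 144 in Myc and 80.2 in vector. Mmp3, a stromelysin, stood at 51.2 FPKM in Minimal Myc, 4.36 in MycN, 64.0 in Myc and 38.8 in vector. Minimal Myc was the culture apart for Timp1, and MycN for Mmp3.

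On the lower side, Mmp9, a gelatinase, stood at 3.22 FPKM in Minimal Myc, 41.6 in MycN, 14.1 in Myc and 11.8 in vector. Mmp2, the other gelatinase, stood at 86.0 FPKM in Minimal Myc, 214 in MycN, 45.8 in Myc and 56.3 in vector. Col6a3, a chain of collagen VI, stood at 2.45 FPKM in Minimal Myc, 25.9 in MycN, 22.5 in Myc and 8.74 in vector, and its partner chain Col6a1 at 62.3 in Minimal Myc and 139 in MycN. Both gelatinases and both collagen VI chains were thus lower in Minimal Myc than in MycN, with Minimal Myc the lowest of the 4 for Mmp9 and Col6a3. Sulf2, which trims heparan sulfate, stood at 1.42 FPKM in Minimal Myc, 26.4 in MycN, 5.29 in Myc and 3.92 in vector.

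Several contractile and actin genes differed widely. Of 17 smooth muscle contractile genes 5 were at least 2-fold higher in Minimal Myc and 0 lower (median 0.38), and of 31 actin turnover genes 4 were higher and 0 lower (median 0.35), where 7.08% of all genes were higher. Of these, Flna among the 5 and Tmsb4x and Msn among the 4 are X-linked. Myl9, a myosin light chain, stood at 59.2 FPKM in Minimal Myc, 3.30 in MycN, 82.9 in Myc and 33.3 in vector. Tagln, an actin bundler, stood at 226 FPKM in Minimal Myc, 29.4 in MycN, 133 in Myc and 147 in vector. Tmsb4x, which holds actin monomers, stood at 1252 FPKM in Minimal Myc, 31.4 in MycN, 1462 in Myc and 685 in vector. MycN was the low culture in all 3, and the difference of 5.27 for Tmsb4x was not one of a high Minimal Myc.

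Of 26 matricellular, Yap and Tgfb target genes 10 were higher and 3 lower, with a median of 0.54. Among all genes 7.08% were higher and 4.41% lower. Thbs1, thrombospondin 1, stood at 528 FPKM in Minimal Myc, 71.5 in MycN, 223 in Myc and 127 in vector. Nov, of the same family as Ctgf, stood at 3.52 FPKM in Minimal Myc, 22.9 in MycN, 27.6 in Myc and 18.5 in vector. Integrins, cadherins and adhesion genes had 8 of 23 higher and 5 lower (median 0.50, against -0.01173 with no filter on low values), with Thy1 at 354 FPKM in Minimal Myc and 95.5 in MycN, and Cdh13 at 1.06 and 9.27.

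Secreted signals and imprinted genes held several of the widest gaps. The shares over all genes were 7.08% higher and 4.41% lower by 2-fold or more. Of 31 growth factors and receptors 11 were higher in Minimal Myc and 1 lower (median 0.46), of 18 Wnt and BMP genes 6 and 2 (median -0.23), and of 20 Igf and imprinted genes 5 and 3 (median 0.29). Grb10, an imprinted brake on insulin signalling, stood at 38.7 FPKM in Minimal Myc, 0.105 in MycN, 17.5 in Myc and 0.0977 in vector. Sfrp1, a decoy that binds Wnt, stood at 33.9 FPKM in Minimal Myc, 0.138 in MycN, 5.58 in Myc and 0.198 in vector. For both, MycN and vector were low, and Minimal Myc was highest with Myc next. Fgf7, a growth factor for epithelia, stood at 162 FPKM in Minimal Myc, 21.8 in MycN, 96.3 in Myc and 37.3 in vector. Igfbp4, which binds Igf, stood at 28.7 FPKM in Minimal Myc, 0.573 in MycN, 3.75 in Myc and 1.22 in vector. Meg3 and Rian, noncoding RNAs of 1 imprinted cluster, stood at 12.8 and 9.74 FPKM in Minimal Myc and at 1.21 and 0.988 in MycN, with 0.0365 and 0.162 in Myc and 0.124 and 0.134 in vector. Dlk1, of that cluster but made from the other parental copy, stood at 185 FPKM in Minimal Myc, 375 in MycN, 44.0 in Myc and 151 in vector.

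**Figure D4:**
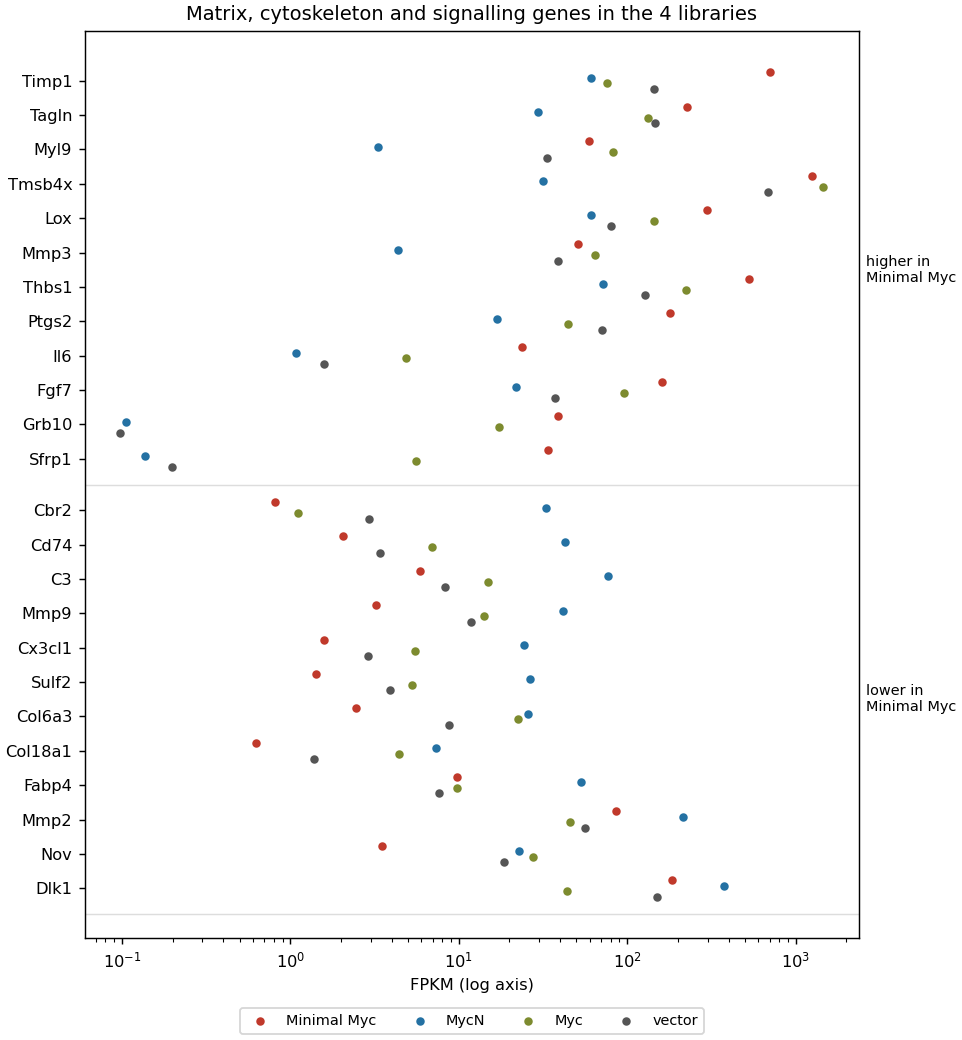
Level in FPKM (log axis) of 24 genes outside the interferon lists in Minimal Myc, MycN, Myc and vector, 1 library each, with genes higher in Minimal Myc above the line and genes lower below it. MycN is the low culture for Myl9, Tmsb4x and Mmp3 and the high one for Cbr2, Cd74, C3 and Mmp9, while Grb10 and Sfrp1 are high in Minimal Myc and Myc.

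The gene lowest by rule was Atp6v0c-ps2, a processed copy of a proton pump gene, at 0.0221 FPKM in Minimal Myc, 26.8 in MycN, 15.7 in Myc and 53.2 in vector. A copy shares its reads with its parent gene, so this value is uncertain. Next came Cbr2, a carbonyl reductase, at 0.811 FPKM in Minimal Myc, 33.0 in MycN, 1.11 in Myc and 2.94 in vector, and then Cd74. Rtn4rl2, a receptor of the Nogo family, stood at 1.20 FPKM in Minimal Myc, 25.4 in MycN, 3.92 in Myc and 0.336 in vector. Cbr2, Cd74 and Rtn4rl2 were thus highest in MycN. Minimal Myc was the lowest culture for Cbr2 and Cd74, and lay between Myc and vector for Rtn4rl2. Pla2g7 had MycN at the Myc level, with 1.02 FPKM in Minimal Myc, 14.3 in MycN, 14.4 in Myc and 4.87 in vector.

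Genes listed at 0 were kept apart, because such a value can be a failed estimate. Acin1, a splicing factor gene that all cells use, was listed at 0 in MycN and stood at 65.6 FPKM in Minimal Myc, 75.3 in Myc and 39.3 in vector. Rn45s, the ribosomal RNA precursor, was listed at 0 in MycN and in vector and stood at 1059 FPKM in Minimal Myc and 995 in Myc. Gnl3l, a nucleolar GTPase, was listed at 0 in Minimal Myc and stood at 9.68 FPKM in MycN. Of the 846 higher genes 32 were listed at 0 in MycN, and of the 527 lower genes 58 were listed at 0 in Minimal Myc. Among all 11950 genes 91 were listed at 0 in MycN and 115 in Minimal Myc.

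Replication-dependent histones lay lower in Minimal Myc than in MycN, with 4 of 27 at least 2-fold lower, 0 higher and a median of -0.57. Of all genes, 4.41% were at least 2-fold lower and 7.08% higher. All 27 lay below the median gene, and Minimal Myc was the lowest of the 4 for 22 of them. Over all 11950 genes Minimal Myc was the lowest for 1487. Hist1h4i, a histone H4 gene, stood at 1.73 FPKM in Minimal Myc, 6.70 in MycN, 3.32 in Myc and 7.396 in vector. These messages carry no poly(A) tail. The list of nuclear and untailed RNAs had 4 of 16 lower and 1 higher, with a median of -0.01 and 7 of the 16 above the median gene. Its 4 lower members were Rmrp, Rprl3, Malat1 and Rpph1, and its 1 higher member was Rn45s, which was listed at 0 in MycN. Rmrp stood at 14.9 FPKM in Minimal Myc, 57.7 in MycN, 22.5 in Myc and 118 in vector, and Rpph1 at 11.6 in Minimal Myc, 35.6 in MycN, 12.2 in Myc and 55.9 in vector. Malat1, a nuclear RNA, stood at 64.0 FPKM in Minimal Myc, 192 in MycN, 124 in Myc and 381 in vector. The part of poly(A) selection in the histone values was not tested.

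Genes of the X chromosome were higher in Minimal Myc as a body, a pattern looked for after the values were seen. Of 373 kept X-linked genes 338 had a difference above 0 and 121 were at least 2-fold higher (32.4%), against 6.24% of 11517 autosomal genes. Their median was 0.78, against 0.02 on the autosomes. Along the X, 5 groups of neighbouring genes had medians between 0.71 and 0.81, so the shift ran over its whole length. Relative to vector and centred on the median gene, the X-linked median was 0.57 in Minimal Myc, -0.12 in MycN and 0.02 in Myc. Xist, the RNA of the silent X, stood at 81.6 FPKM in Minimal Myc, 79.9 in MycN, 67.1 in Myc and 134 in vector, and Ddx3y of the Y chromosome stood at 0.392 in Minimal Myc, 0.309 in MycN, 0.354 in Myc and 0.206 in vector.

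Smaller shifts covered other chromosomes. Chromosome 18 had a median of 0.46, chromosome 16 of 0.32 and chromosome 9 of 0.28, while chromosome 8 had -0.37 and chromosome 17 -0.21. Relative to vector, chromosome 18 was at -0.08 in Minimal Myc and -0.40 in MycN, and chromosome 8 at -0.26 in Minimal Myc and 0.19 in MycN. Chromosome 11 was split along its length, with group medians from -0.45 to 0.41, and so were chromosome 14, from -0.28 to 0.53, and chromosome 1, from -0.26 to 0.42. The number of chromosome copies in these cultures was not measured here, and its part in any gene's difference was not tested. Without X-linked genes 719 genes were higher and 520 lower, and with every gene centred on its own chromosome 664 were higher and 539 lower. No kept member of the interferon lists was placed on the X, whether past 2-fold or not.

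**Figure D5:**
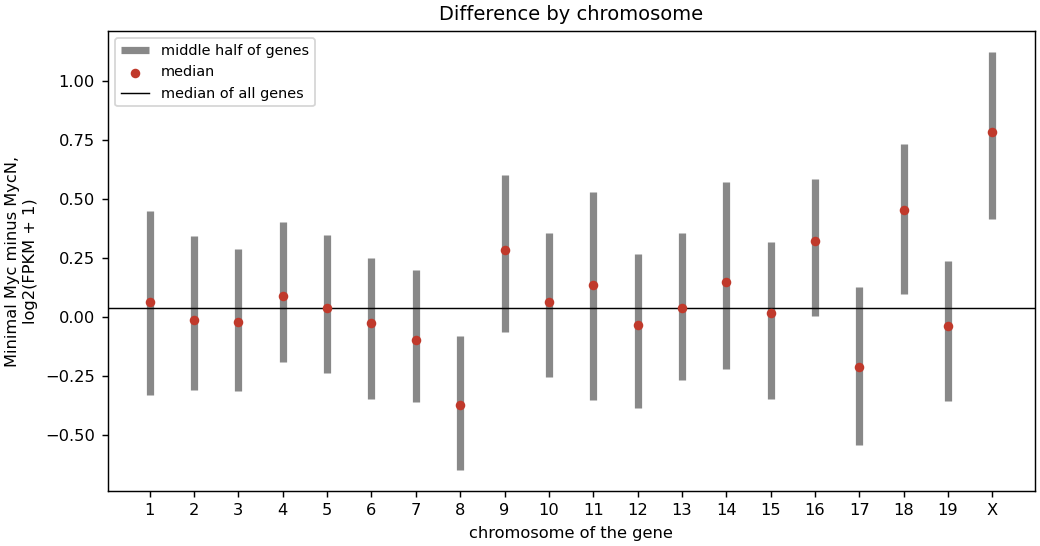
Difference between Minimal Myc and MycN (log2(FPKM + 1)) for the genes of each chromosome, with the median as a red point, the range between the lower and upper quartile as a grey bar and the median of all genes as a line. The X chromosome stands highest at 0.78 with a bar from 0.41 to 1.12, chromosomes 18, 16 and 9 lie above the line and chromosomes 8 and 17 below it.

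A second assay was deposited for 30 genes, as NanoString signal, a hybridization count on another scale. The median ratio of Minimal Myc to MycN was 0.934 by NanoString and 0.951 by FPKM, and 11 of 30 genes were above 1 in each. The sign of the log2 ratio was the same in 26 of 30 genes, the ratios lay within 1.5-fold of each other in 28, and Pearson's r of the log2 ratios was 0.847 over the 30 genes, which share the same cultures. By NanoString 2 genes were at least 2-fold higher in Minimal Myc. B2m read 57149 in Minimal Myc and 22834 in MycN, and the X-linked ribosomal protein gene Rpl10 read 52642 in Minimal Myc and 24724 in MycN, with FPKM ratios of 2.17 and 2.10. In Myc and vector B2m read 62438 and 46911 by NanoString, so there MycN was the low culture. By FPKM Minimal Myc was instead the high one, at 2324 against 1073 in MycN, 911 in Myc and 1269 in vector. Over the 32 NanoString entries the mean ratio to vector was 1.28 in Minimal Myc, 1.30 in MycN and 2.04 in Myc. Npm1 had a ratio of 1.30 by NanoString and 2.02 by FPKM, so its 2-fold call was not matched. B2m is the only interferon list gene among the 30 that passed 2-fold in either assay. The authors' scaled table multiplies Minimal Myc by 1.28 and MycN by 1.30, so it shifts this comparison very little.

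Depth was estimated from the files, since the smallest FPKM values of long genes fall on steps that 1 fragment gives. The best step corresponds to 83700000 fragments in Minimal Myc and 87700000 in MycN, with 216 of 1463 and 224 of 1492 low values within 2% of 1, 2 or 3 steps. Among 1039 genes low in both, the most frequent ratio of the values was 1.05, found in 215, which is the ratio of these depths. Other values did not fall on steps, so the depths are estimates. At that depth, and with transcript lengths of the later build, the low MycN values still rest on fragments: an estimated 206 for Ifi44, 70.9 for Zbp1, 46.6 for Iigp1, 45.4 for Grb10 and 23.8 for Oas2. On the other side, Dpep1 rested on 25.8 fragments in Minimal Myc and Sparcl1 on 8.03. Fragments made by PCR are not independent molecules, so these numbers limit counting error only, and the spread between cultures is not known.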

How the data were processed

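Polyadenylated RNA of 4 cultures was sequenced, 1 library per group, and the groups were taken from the genotype labels. The authors deposited FPKM in 2 tables with identical columns, one as made (26576 identifiers) and one multiplied by 1 factor per library. The submitters' processing notes name Cufflinks 2.2.0, TopHat2 2.0.11 and, as mouse build, mm9, without saying what each did. A further 32 entries for 30 genes hold NanoString signal that the authors deposited in the same columns, with a normalization not given in the sources used here. The ERCC spike-ins named in the labels are not analysed here.

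Entries of a gene with equal values were merged and differing ones summed (189 genes). Genes with a mean of 1 FPKM or more over the 4 libraries were kept, 1 FPKM was added before taking log2, and a gene was counted at a difference of 1 or more either way. No test was run and no p-value is given. Depth was estimated from the spacing of low values of transcripts over 2500 bases, and their ratios from genes under 0.03 FPKM in both libraries. A chromosome was found for 99.5% of kept genes. Python 3.11.15, pandas 2.3.3, numpy 2.4.6 and matplotlib 3.10.9 were used, and the calculation was tested on simulated data.

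The comparison and the 54 gene lists were chosen with earlier results of these data known, and the lists overlap. Genes were named by rule: the Myc, Max and Mxd network, the 15 highest and 15 lowest above 0 in both libraries (leaving out predicted and small RNA genes and genes with differing entries), up to 5 a side listed at 0 in 1 library, and up to 6 members per list with the largest centred difference. Other genes named (such as Isg15, Bst2, Irf3, Ifnb1, H2-K1, Socs1, Mmp2, Dlk1, class II genes, Xist and Ddx3y), and the patterns by chromosome, were chosen after their values were seen. Alternatives were the pseudocount, the filter, the choice of entry, the scaled table, leaving out small RNA genes or genes at 0, and 2 added later for chromosomes. Among the genes the rule takes, 1 is not reported here.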

Additional observations from a re-analysis of the deposited data

How the results depend on the processing

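No paired analysis was possible because each group has 1 library. With a pseudocount of 5 FPKM 469 genes were at least 2-fold higher in Minimal Myc than MycN and 210 lower, and relative to the median gene 448 and 217. With genes of a mean of 5 FPKM or more, which tests fewer genes, 279 were lower, and relative to the median gene 516 were higher and 330 lower. The other alternatives left these counts within 1.5-fold. Of the list medians under all alternatives, 450 moved by less than 0.1, 62 by more, and 5 changed sign: negative regulators of interferon at -0.01876 with no filter and -0.03111 in the authors' scaled table, integrins, cadherins and adhesion at -0.01173 with no filter, against 0.50 as reported, and Hox genes at 0.00565 with no filter and 0.2043 with a mean of 5 FPKM or more. The cause was not tested. Medians of antiviral effectors ranged from 2.01 to 3.74, of inducible GTPases from 2.25 to 4.78 and of sensors from 1.22 to 2.18. The limits are 1 library a side, FPKM relative to each library's total, and no test.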

Other observations

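Of 23 Bcl2 family and cell death genes 4 were 2-fold or more higher and 2 lower, at a median of 0.16. Over all genes 7.08% were higher and 4.41% lower. Gsdmd, which forms the pores of pyroptosis, stood at 25.7 FPKM in Minimal Myc, 4.31 in MycN, 7.75 in Myc and 10.1 in vector, and Casp4, the caspase that cuts it, at 54.7 in Minimal Myc, 12.8 in MycN, 7.61 in Myc and 10.1 in vector. Ripk3, the kinase of necroptosis, stood at 22.9 FPKM in Minimal Myc, 8.22 in MycN, 3.81 in Myc and 8.09 in vector. Bok, a Bcl2 family member, went the other way at 24.95 FPKM in Minimal Myc, 58.6 in MycN, 28.02 in Myc and 22.9 in vector. Cell cycle inhibitors and p53 targets had 3 of 27 higher and 3 lower. Cdkn1b, which encodes p27, stood at 16.7 FPKM in Minimal Myc, 39.6 in MycN, 28.3 in Myc and 13.8 in vector, while Cdkn2b, which encodes p15, stood at 70.5 in Minimal Myc, 24.6 in MycN, 31.5 in Myc and 21.6 in vector.

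Immediate early genes had 5 of 28 higher and 1 lower, with Egr1 at 97.9 FPKM in Minimal Myc, 24.5 in MycN, 20.1 in Myc and 37.9 in vector, and the phosphatase gene Dusp1 at 11.7 in Minimal Myc, 31.4 in MycN, 16.9 in Myc and 22.997 in vector. Iron and Nrf2 genes had 2 of 25 higher and 3 lower, among them Hmox1, which breaks down heme, at 64.8 FPKM in Minimal Myc, 131 in MycN, 153 in Myc and 147 in vector. Clock genes had 0 of 15 higher and 2 lower, Per2 at 0.962 FPKM in Minimal Myc and 3.14 in MycN and Bhlhe41 at 1.16 and 3.40. Of 27 Hox genes 2 were higher, Hoxa11 at 3.59 FPKM in Minimal Myc, 0.115 in MycN, 4.52 in Myc and 1.62 in vector, and Hoxd9 at 2.90 in Minimal Myc, 0.313 in MycN, 0.301 in Myc and 0.706 in vector. Lysosomal genes had 5 of 37 higher and 1 lower, and 3 of the 5 are X-linked. Housekeeping genes had 2 of 19 higher, the X-linked Hprt at 91.2 FPKM in Minimal Myc and 30.7 in MycN and B2m as above. Over all genes 7.08% were higher and 4.41% lower, so the higher counts of the iron and Hox lists lay near that share.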
